A study of Mus musculus with 84 samples.

Results

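The comparison described here sets genetic against diet-induced obesity in the liver: 3 libraries from ob/ob mice on normal diet (ND) and 3 from wild-type (WT) mice on a high-fat diet (HFD). These 6 of the 84 libraries of the series were picked out by their genotype, diet and tissue labels. The comparison itself was chosen with earlier results of these data known. The series sequenced 7 tissues from each of 12 mice, 3 per combination of genotype (WT or ob/ob) and diet (ND or HFD), with tissues collected at 20 weeks, which the labels do not define as age or as time on the diet. The labels give no strain or sex for these mice. The ob allele, by background knowledge, is a nonsense mutation of the leptin gene that leaves the animal without working leptin from birth, and it is not visible in gene counts. The 2 groups differ in genotype and diet together, so their separate parts in any difference cannot be told apart from these 6 libraries. The 3 lean WT mice on ND and the 3 ob/ob mice on HFD, whose livers were sequenced in the same way, are given as levels beside the results where they help to place the 2 groups.

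Leptin is the hormone by which fat tissue reports its stores to the brain, and its loss causes overeating, high insulin and a fatty liver on ordinary chow. A high-fat diet causes obesity and a fatty liver with leptin intact, but the fat arrives mainly from the food. The liver makes fatty acids from sugar under the transcription factors SREBP1c and ChREBP, makes cholesterol under SREBP2, and in male mice keeps a sex-specific set of genes that depends on pulses of growth hormone.

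Total counts over the 12 liver libraries ranged from 10860694 to 14004875. Levels are given as CPM, counts scaled to a common library size, and transcripts near 1 CPM rest on few reads per library. The 16 hepatocyte markers summed to 112001 to 122850 CPM in WT HFD and 113806 to 119993 CPM in ob/ob ND, and only 1 of 12 pancreatic acinar markers had enough counts to be tested. Replicates are separate mice by their labelled numbers. WT HFD mouse 3 stood apart from its group: its counts differed from those of WT HFD mice 1 and 2 with a chi-square per degree of freedom of 42.35 and 42.16, against 8.65 between mice 1 and 2. Where leaving out this or another library moved a count of list members by more than 1.5 times, the count without it stands beside it, apart from changes of a single call. The labels' RNA protocol speaks of hearts for every tissue, and the abundance of Alb (69999, 61775 and 59934 CPM in WT HFD and 71226, 75638 and 80107 CPM in ob/ob ND mice 1 to 3) shows liver RNA in all 6.

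The ob/ob ND mice were heavier, fatter and had larger livers. Body weight was 50.1, 46.4 and 47.7 in WT HFD and 68.2, 67.3 and 71.3 in ob/ob ND mice, and 32.3, 32 and 32.1 in lean mice. Recorded liver weight, for which the file names no unit, was 3.006, 2.645 and 2.227 in WT HFD mice and 4.529, 3.99 and 4.261 in ob/ob ND mice, against 1.198, 1.194 and 1.208 in lean mice. The obese groups did not overlap for liver weight, with a mean difference of 1.63. Body fat was 20.05, 18.62 and 17.88 in WT HFD and 39.9, 39.49 and 45.23 in ob/ob ND mice, while lean mass was lower in all 3 ob/ob ND mice (23.22, 23.25 and 21.29, against 26.21, 24.72 and 27.04). Alanine aminotransferase, a blood marker of liver cell injury, was 333, 193 and 232 U/L for the WT HFD animals and 357, 451 and 484 U/L for the ob/ob ND animals. The lean mice had 29, 26 and 29 U/L, so both obese groups were far above them. Fasting glucose, also recorded without a unit, ran the other way, at 239, 259 and 188 in WT HFD and 160, 181 and 173 in ob/ob ND mice, with no overlap. Blood glucose in mg/dL overlapped (284, 412 and 364 against 290, 253 and 384). Total cholesterol (256, 240 and 219 against 263, 264 and 246 mg/dL) and triglyceride (60, 46 and 93 against 83, 58 and 64 mg/dL) overlapped between the groups. With 3 mice against 3 an exact two-sided permutation test cannot go below p = 0.1, which the 6 non-overlapping measures reached (adjusted p = 0.167 over 10 measures).

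In the liver, 3617 of 13246 tested genes (27.3%) differed between ob/ob ND and WT HFD mice at an adjusted p of 0.05 in edgeR's quasi-likelihood test. Of these, 1786 (13.5%) were higher and 1831 (13.8%) lower in ob/ob ND, and 395 and 582 of them by at least 2-fold. Counts of list members below are to be read beside these shares. The lists of fatty acid oxidation, lipoproteins, gluconeogenesis, glycogen, one-carbon metabolism and clock genes were not far from them. Their counts are given as description only. The median log2 fold change over all tested genes was -0.01. The libraries of the 2 groups did not overlap for 43.6% of tested genes. Genes named below for their fold change or abundance were taken only from those without overlap. Their lack of overlap is therefore given as description, not as support. All log2 fold changes below are ob/ob ND minus WT HFD, with a standard error and n = 3 per group, unless another comparison is named. Against lean mice, 36.4% of genes were called in ob/ob ND livers (19.3% higher, 17.1% lower) and 21.8% in WT HFD livers (12% higher, 9.87% lower). Those 2 comparisons share the 3 lean libraries, so their values are given side by side and are not independent.

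**Figure D1:**
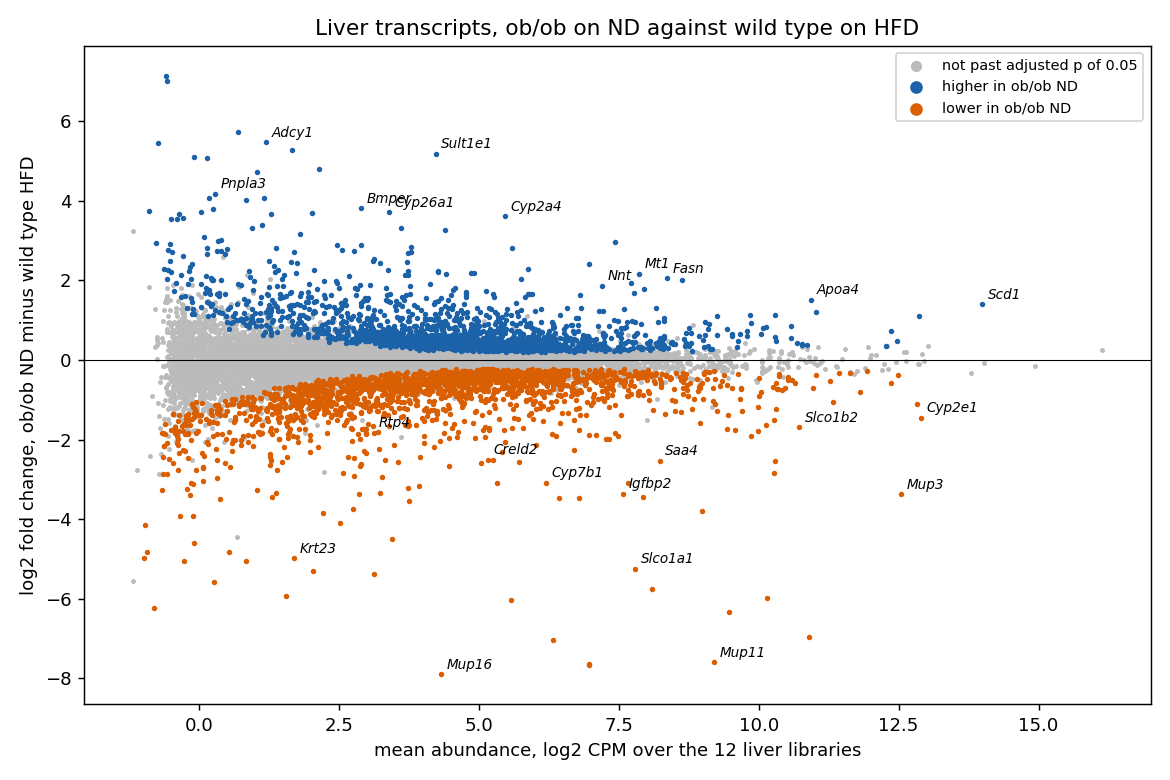
Log2 fold change (ob/ob ND minus WT HFD, vertical axis) against mean abundance (log2 CPM over 12 liver libraries, horizontal axis) for each tested gene, coloured where the adjusted p was below 0.05. Major urinary protein genes reach the lowest values (Mup16 at -7.90, and at -5.39 without WT HFD mouse 3), and Scd1 and Fasn lie among the abundant genes that were higher in ob/ob ND.

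**Figure D2:**
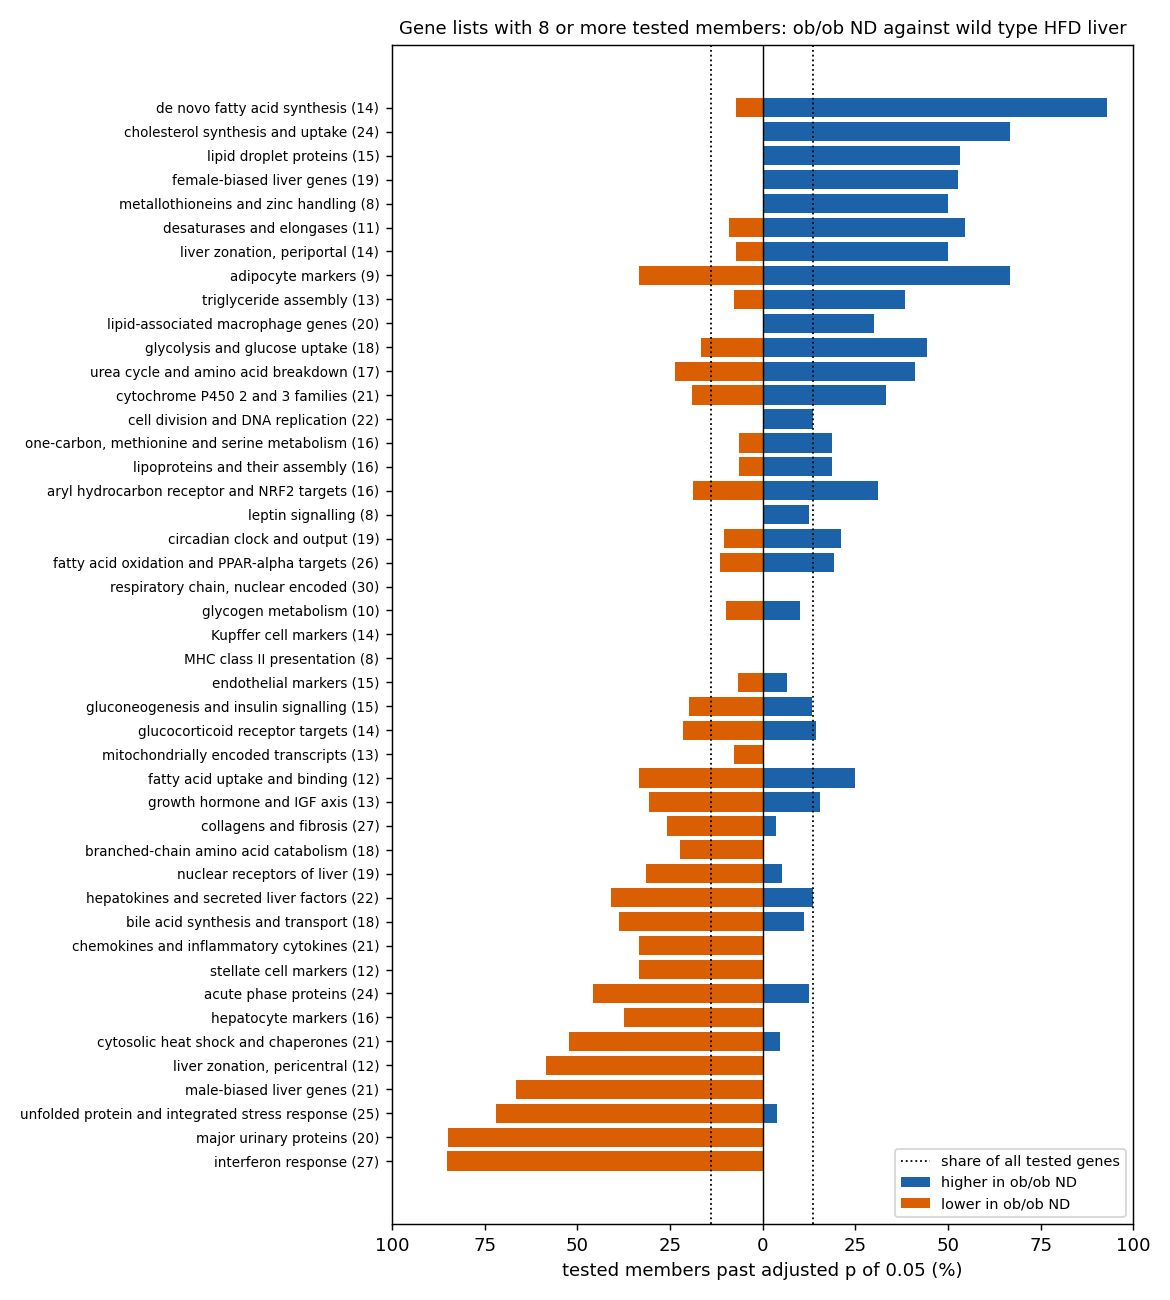
Share of tested members of each gene list (number tested in brackets) that were higher (right, blue) or lower (left, orange) in ob/ob ND than in WT HFD liver. Dotted lines mark the shares of all tested genes, 13.5% higher and 13.8% lower. Fatty acid and cholesterol synthesis lie at the top, and interferon response genes and major urinary proteins at the bottom.

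Genes for making fatty acids from sugar were higher in ob/ob ND liver, 13 of 14 tested members, with 1 lower and a median log2 fold change of 1.35. Without WT HFD mouse 3 the counts were the same and the median was 1.22. Fasn, fatty acid synthase, stood at 163, 219 and 111 CPM in WT HFD mice 1 to 3 and at 643, 742 and 669 CPM in ob/ob ND mice 1 to 3. Every ob/ob ND library was above every WT HFD library, a log2 difference of 2.06 ± 0.21 (adjusted p = 3.48e-05). Scd1, the desaturase that makes monounsaturated fatty acids, stood at 11792, 12194 and 9570 CPM in WT HFD and 31586, 26068 and 30658 CPM in ob/ob ND (1.40 ± 0.15, adjusted p = 4.69e-05). Acly, which supplies cytosolic acetyl-CoA, was 105, 137 and 82.1 CPM in WT HFD and 382, 503 and 350.5 CPM in ob/ob ND (1.93 ± 0.19, adjusted p = 3.1e-05). Elovl6, which elongates palmitate, was 66.9, 87.2 and 53.1 and 188, 196 and 265 CPM (1.64 ± 0.18, adjusted p = 4.54e-05). No library of one group entered the range of the other for any of these 4 genes. Srebf1, which encodes SREBP1c, was higher as well (1.68 ± 0.24, adjusted p = 0.000321), while Mlxipl, which encodes ChREBP, was the 1 member that was lower (-0.36 ± 0.09, adjusted p = 0.0109, and 0.0512 without WT HFD mouse 1). Against lean mice, 1 of 14 members was higher and 7 lower in WT HFD, with a median of -0.54, and the ob/ob ND median against lean was 0.98. In ob/ob mice on HFD the mean levels were 10267 CPM for Scd1, 239 CPM for Fasn and 136 CPM for Acly, below each of the 3 ob/ob ND libraries.

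Among desaturases and elongases, 6 of 11 tested members were higher and 1 was lower (5 and 1 without WT HFD mouse 3). Scd2, a second stearoyl-CoA desaturase, was 4.98, 5.9 and 5.89 CPM in WT HFD and 29.7, 15.4 and 47.2 CPM in ob/ob ND (2.46 ± 0.35, adjusted p = 0.000299). Elovl5, which elongates polyunsaturated fatty acids, was higher too (1.13 ± 0.18, adjusted p = 0.000666). The member that was lower was Elovl3, which in mouse liver is also male-biased and daily cycling, at 98.3, 115 and 145 CPM in WT HFD and 11.4, 16.9 and 13.8 CPM in ob/ob ND (-3.08 ± 0.32, adjusted p = 3.79e-05).

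Lipid droplet genes were higher in ob/ob ND, 8 of 15 tested members with none lower (median 0.67). Without WT HFD mouse 2, WT HFD mouse 3 or ob/ob ND mouse 2, 5 of 15 were higher. Pnpla3, a droplet hydrolase that SREBP1c controls, was near the limit of detection in WT HFD (0.22, 0.149 and 0.0966 CPM) and at 3.08, 2.11 and 4 CPM in ob/ob ND (4.18 ± 0.59, adjusted p = 0.000286). Cidec, which fuses droplets into larger ones, was 122, 115 and 81.4 CPM in WT HFD and 236, 279 and 231 CPM in ob/ob ND (1.23 ± 0.22, adjusted p = 0.00158). The lean mean for Cidec was 22 CPM, below all 6 obese libraries. Hsd17b13, a droplet enzyme (0.72 ± 0.13, adjusted p = 0.00156), and Pnpla2, the main triglyceride lipase (0.67 ± 0.10, adjusted p = 0.00049), were also higher. Fat-cell transcripts were uneven across the ob/ob ND livers. Adipoq stood at 11.8, 2.6 and 0.0713 CPM in ob/ob ND mice 1 to 3, against 0.0733, 0 and 0.193 CPM in WT HFD, and Plin1 at 4.33, 0.632 and 0.143 CPM in ob/ob ND. Of the 12 adipocyte markers 9 were tested, 6 higher and 3 lower (5 and 1 without WT HFD mouse 3, 1 lower without ob/ob ND mouse 3, and 3 higher without WT HFD mouse 2), and their summed level was 3013 to 3654 CPM in ob/ob ND and 4661 to 5962 CPM in WT HFD, most of it Car3. The part of fat-cell RNA in the droplet gene values was not tested.

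Triglyceride assembly had 5 of 13 members higher and 1 lower, which was not called without ob/ob ND mouse 3 (median 0.35). The initiating acyltransferases Gpam (0.61 ± 0.14, adjusted p = 0.0069) and Gpat3 (0.81 ± 0.18, adjusted p = 0.00504) were higher. Of 12 genes of fatty acid uptake, 3 were higher and 4 lower, with 1 higher without WT HFD mouse 1, WT HFD mouse 2 or ob/ob ND mouse 1. Slc27a1, a fatty acid transport protein, was 12.5, 11.4 and 10.9 CPM in WT HFD and 4.11, 4.07 and 3.14 CPM in ob/ob ND (-1.62 ± 0.29, adjusted p = 0.00133). Of 26 fatty acid oxidation genes and other PPAR-alpha targets 5 were higher and 3 lower (median -0.04), beside 13.5% and 13.8% of all tested genes. The lower count was 5 without ob/ob ND mouse 2 and 1 without ob/ob ND mouse 3. Cyp4a14, an omega-hydroxylase, was 1446, 929 and 854 CPM in WT HFD and 2165, 3390 and 1858 CPM in ob/ob ND (1.20 ± 0.24, adjusted p = 0.00258). Vnn1, another PPAR-alpha target, was lower (-0.84 ± 0.14, adjusted p = 0.00102). Fgf21, the fasting and stress hormone of the liver, was 10.4, 11.3 and 6.38 CPM in WT HFD and 17.1, 43.1 and 23.3 CPM in ob/ob ND (1.56 ± 0.33, adjusted p = 0.00399). Among 16 lipoprotein genes 3 were higher and 1 lower. Apoa4, which rises with liver fat, was 1197, 1410 and 871 CPM in WT HFD and 2882, 3068 and 3972 CPM in ob/ob ND, against a lean mean of 52.1 CPM.

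Cholesterol synthesis and uptake genes were higher in ob/ob ND liver, 16 of 24 with none lower (median 1.07). Without WT HFD mouse 3 the count was 12 of 24 and the median 0.93. Hsd17b7, a late enzyme of the pathway, was 22.3, 29.2 and 26.3 CPM in WT HFD and 71.3, 70.7 and 67.8 CPM in ob/ob ND (1.43 ± 0.17, adjusted p = 9.29e-05). Pmvk, a mevalonate pathway kinase, was 14.2, 19.6 and 11.8 CPM in WT HFD and 43.1, 39.6 and 38.5 CPM in ob/ob ND (1.40 ± 0.19, adjusted p = 0.000206). Lss, which closes the sterol rings, was 12.7, 17.6 and 10.5 CPM and 34.4, 33.4 and 39.2 CPM (1.38 ± 0.24, adjusted p = 0.00119). The 2 groups did not overlap for these genes, and the ob/ob ND libraries lay above the lean means of 59.8, 30.6 and 21.1 CPM. Dhcr7, the last enzyme of one branch (1.27 ± 0.20, adjusted p = 0.000691), and Fdps, which makes farnesyl diphosphate (2.72 ± 0.53, adjusted p = 0.00218), were higher. Srebf2, which encodes SREBP2, was not past the threshold (0.20 ± 0.14, adjusted p = 0.31). Set against lean mice, 0 of 24 members were higher and 15 lower in WT HFD (median -0.99). In ob/ob ND 3 were higher, 2 lower and 19 not past the threshold against lean (median 0.16). The sterol element TCACNCCAC, on either strand, was in 1 of 19 promoters of list members (5.26%) and in 1.24% of all 32851 mouse promoters of 300 bases.

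**Figure D3:**
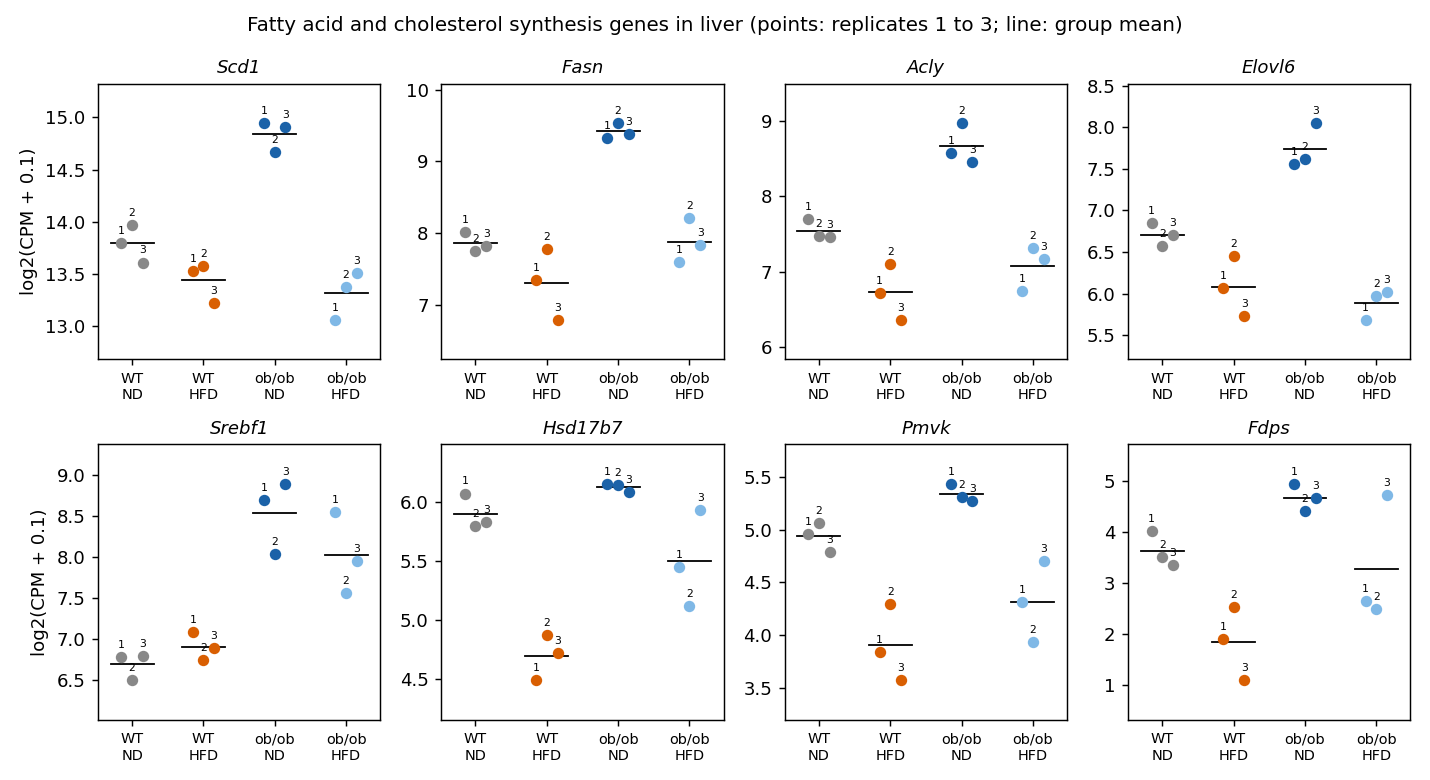
Levels (CPM) on a log2 axis for 5 fatty acid synthesis genes and 3 cholesterol synthesis genes in the 12 liver libraries, with points numbered by mouse and a line at the mean of the log values. For all 8 genes the 3 ob/ob ND points lie above the 3 WT HFD points.

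Some enzymes that handle fructose and glucose were higher in ob/ob ND liver and others lower. Of 18 glycolysis and glucose uptake genes, 8 were higher and 3 lower (median 0.15). Tkfc, which is not on that list and phosphorylates the glyceraldehyde from fructose, was 428, 498 and 347 CPM in WT HFD and 768, 1191 and 786 CPM in ob/ob ND (1.11 ± 0.20, adjusted p = 0.00165). Pklr, liver pyruvate kinase (1.30 ± 0.20, adjusted p = 0.000483), and Hk2, a hexokinase little used by normal liver (adjusted p = 8.91e-05), were higher, whereas Pfkfb1 (-1.28 ± 0.19, adjusted p = 0.000335) and Pfkfb3 (-1.81 ± 0.26, adjusted p = 0.000348), which set the level of a glycolytic activator, were lower. Hk2 was at a lean mean of 0.478 CPM and at 3.52, 4.71 and 3.77 CPM in WT HFD and 11.7, 9.55 and 12.9 CPM in ob/ob ND. Of 15 genes of gluconeogenesis and insulin signalling 2 were higher and 3 lower. The higher count was 1 without WT HFD mouse 3 or ob/ob ND mouse 1, and the lower count 1 without WT HFD mouse 2 or ob/ob ND mouse 2. Igfbp2, which insulin lowers and leptin raises, was 187, 187 and 185 CPM in WT HFD and 18, 25.1 and 11.6 CPM in ob/ob ND (-3.35 ± 0.50, adjusted p = 0.000398). The lean mean for Igfbp2 was 495 CPM, above both obese groups. Fbp1, a gluconeogenic phosphatase, was higher (0.57 ± 0.10, adjusted p = 0.00147). Among 10 glycogen genes 1 was higher and 1 lower, and none was higher without WT HFD mouse 1, WT HFD mouse 3, ob/ob ND mouse 1 or ob/ob ND mouse 3. The lower, Ppp1r3c, which brings a phosphatase to glycogen, was at 79.9, 98.5 and 84.4 CPM in WT HFD and 16.1, 30.3 and 13.5 CPM in ob/ob ND (-2.13 ± 0.25, adjusted p = 8.77e-05).

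A pair of aminotransferases was higher in ob/ob ND liver. Got1, cytosolic aspartate aminotransferase, was 80, 128 and 90.6 CPM in WT HFD and 431, 310.2 and 289 CPM in ob/ob ND (1.78 ± 0.20, adjusted p = 6.33e-05). Gpt2, mitochondrial alanine aminotransferase, was 663, 744 and 727 CPM in WT HFD and 1403, 1368 and 1306 CPM in ob/ob ND (0.93 ± 0.08, adjusted p = 1.25e-05). The groups did not overlap for either gene. Over the 17 tested genes of the urea cycle and amino acid breakdown, 7 were higher and 4 lower (median 0.05), with 4 higher without ob/ob ND mouse 1 or 3. Asl was higher (0.90 ± 0.14, adjusted p = 0.000659) and Otc, another urea cycle enzyme, lower (-0.70 ± 0.12, adjusted p = 0.000897). Of 18 genes of branched-chain amino acid breakdown none was higher and 4 were lower, led by Ppm1k, the phosphatase that activates the branched-chain keto acid dehydrogenase (-1.05 ± 0.18, adjusted p = 0.00112). Of 16 one-carbon and serine genes 3 were higher and 1 lower (5 higher without ob/ob HFD mouse 1), and Gnmt, a major methyl group user, was 687, 779 and 782 CPM in WT HFD and 1314, 1369 and 1211 CPM in ob/ob ND, the latter close to the lean mean of 1316 CPM.

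Slco1b2, a gene of bile acid uptake, and Cyp7b1, of the alternative synthesis pathway, were lower in ob/ob ND. Of 18 tested genes of bile acid synthesis and transport 2 were higher and 7 lower (median -0.23). Slco1b2, a hepatocyte uptake carrier, was 2450, 2297 and 3052 CPM in WT HFD and 862, 787 and 778 CPM in ob/ob ND (-1.68 ± 0.12, adjusted p = 3.26e-06). Cyp7b1, of the alternative pathway, was 44.6, 50.2 and 97.3 CPM in WT HFD and 9.03, 7.8 and 5.78 CPM in ob/ob ND (-3.08 ± 0.29, adjusted p = 1.56e-05). Nr0b2, which encodes the repressor SHP, was 50.6, 42.6 and 32.1 CPM and 3.89, 6.32 and 10.5 CPM (-2.60 ± 0.27, adjusted p = 4.23e-05). The groups did not overlap for Slco1b2, Cyp7b1 and Nr0b2. Among other uptake carriers, Slc10a1 (0.08, adjusted p = 0.804) and Slco1a4 (0.16, adjusted p = 0.471) were not past the threshold in the fit without WT HFD mouse 3. Slco1b2 was lower in that fit (-1.55, adjusted p = 6.61e-06). Slco1a1 was lower without that mouse (-3.34, adjusted p = 9.3e-05). Abcc4, an export pump, was higher (1.92 ± 0.28, adjusted p = 0.000361). Cyp7a1, the rate-limiting enzyme of bile acid synthesis, was 69.5, 103 and 291 CPM in WT HFD and 349, 175 and 123 CPM in ob/ob ND, ranges that overlapped (0.49 ± 0.44, adjusted p = 0.451, against 1.32 and adjusted p = 0.0186 without WT HFD mouse 3). Of 19 nuclear receptors 1 was higher and 6 lower. Nr1i3, which encodes the drug-sensing receptor CAR, was 83.2, 73.5 and 75.6 CPM in WT HFD and 19.5, 31.6 and 19.6 CPM in ob/ob ND (-1.71 ± 0.23, adjusted p = 0.000231), and Nr1h3, the sterol sensor LXR-alpha, was lower too (-0.51 ± 0.09, adjusted p = 0.00122). Pparg, a fat-storage factor that is raised in fatty liver, was the member that was higher (0.91 ± 0.18, adjusted p = 0.00231).

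Among the lowest log2 fold changes were those of genes that male mice express under pulsed growth hormone. Major urinary protein genes, which encode pheromone carriers, were lower in ob/ob ND in 17 of 20 tested members with none higher (median -4.74). Without WT HFD mouse 3 the count was 15 of 20 and the median -3.06. Against lean, 18 of these genes were lower in ob/ob ND and none was called in WT HFD (median -0.71), where the mice were widely spread. The list summed to 20865 to 31241 CPM in lean, 6963 to 31850 CPM in WT HFD and 942 to 1496 CPM in ob/ob ND. The absence of calls in WT HFD therefore does not mean lean levels in each of its mice. Mup3 was 5371, 6030 and 14486 CPM in WT HFD mice 1 to 3 and 1015, 869 and 610.4 CPM in ob/ob ND (-3.38 ± 0.37, adjusted p = 5.35e-05). Mup11 was 119, 163 and 3274 CPM in WT HFD and 16.5, 1.05 and 0.999 CPM in ob/ob ND. WT HFD mouse 3 was far above mice 1 and 2 for both genes, and above the lean means of 13561 and 1172 CPM. Without it, the log2 difference was -2.78 for Mup3 and -4.52 for Mup11. These genes are near-identical copies, so the share of reads credited to each is uncertain. Of 21 male-biased genes 14 were lower and none higher (median -1.76), and 9 were lower without WT HFD mouse 3 (median -0.82). Against lean, 13 male-biased genes were lower and none higher in WT HFD (median -1.33), and 19 were lower and none higher in ob/ob ND (median -2.71). Slco1a1, an organic anion carrier, was 26.9, 60.2 and 402 CPM in WT HFD and 6.83, 2.67 and 3.42 CPM in ob/ob ND (-5.24 ± 0.84, adjusted p = 0.00071), against a lean mean of 722 CPM. The Slco1a1 difference was -3.34 without WT HFD mouse 3. C8a, a complement component, was lower (-1.58 ± 0.20, adjusted p = 0.000154), as was Cyp2u1 (-2.57 ± 0.20, adjusted p = 4.01e-06).

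Female-biased genes were higher in ob/ob ND, 10 of 19 tested with none lower (median 1.15), and 9 without WT HFD mouse 3. Against lean, 6 were higher and 1 lower in WT HFD (median 0.75), and 14 were higher and none lower in ob/ob ND (median 2.65). Sult1e1, the sulfotransferase that inactivates oestrogen, was 0.513, 0.673 and 0.966 CPM in WT HFD and 34.3, 14.3 and 28.7 CPM in ob/ob ND (5.18 ± 0.68, adjusted p = 0.000183). Cyp2a4, a steroid hydroxylase with close copies, was 16, 6.05 and 3.58 CPM and 80.7, 76.8 and 163 CPM (3.61 ± 0.51, adjusted p = 0.00029). Ntrk2 was 2.93, 5.01 and 4.44 CPM in WT HFD and 23.4, 14.4 and 16.8 CPM in ob/ob ND (2.14 ± 0.33, adjusted p = 0.000512). Neither group's range touched the other's, and the lean means were lower than all ob/ob ND libraries. Of 13 genes of the growth hormone and IGF axis 2 were higher and 4 lower. The lower count was 2 without WT HFD mouse 3, ob/ob ND mouse 1 or ob/ob ND mouse 2, and the higher count was 1 without WT HFD mouse 1 or ob/ob ND mouse 1. Ghr, the growth hormone receptor, was lower (-0.71 ± 0.10, adjusted p = 0.000281), and Socs2, a growth hormone target and brake, was 1.83, 2.02 and 1.64 CPM in WT HFD and 14.8, 5.55 and 11 CPM in ob/ob ND (2.50 ± 0.49, adjusted p = 0.00231). The Socs2 lean mean of 10.2 CPM lay within the ob/ob ND range. Bcl6, a repressor that favours the male pattern, was at 21.6, 27.1 and 61.2 CPM in WT HFD and 9.55, 8.22 and 10.2 CPM in ob/ob ND, and its call (adjusted p = 0.0205) was lost without WT HFD mouse 3 (adjusted p = 0.096) or any single ob/ob ND mouse (adjusted p of 0.0576, 0.0696 and 0.057 without mice 1 to 3). The STAT5 motif TTCNNNGAA, which growth hormone signalling uses, was in 1 of 18 promoters of male-biased genes (5.56%), in 5 of 25 of female-biased genes (20%) and in 8.3% of all promoters.

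**Figure D4:**
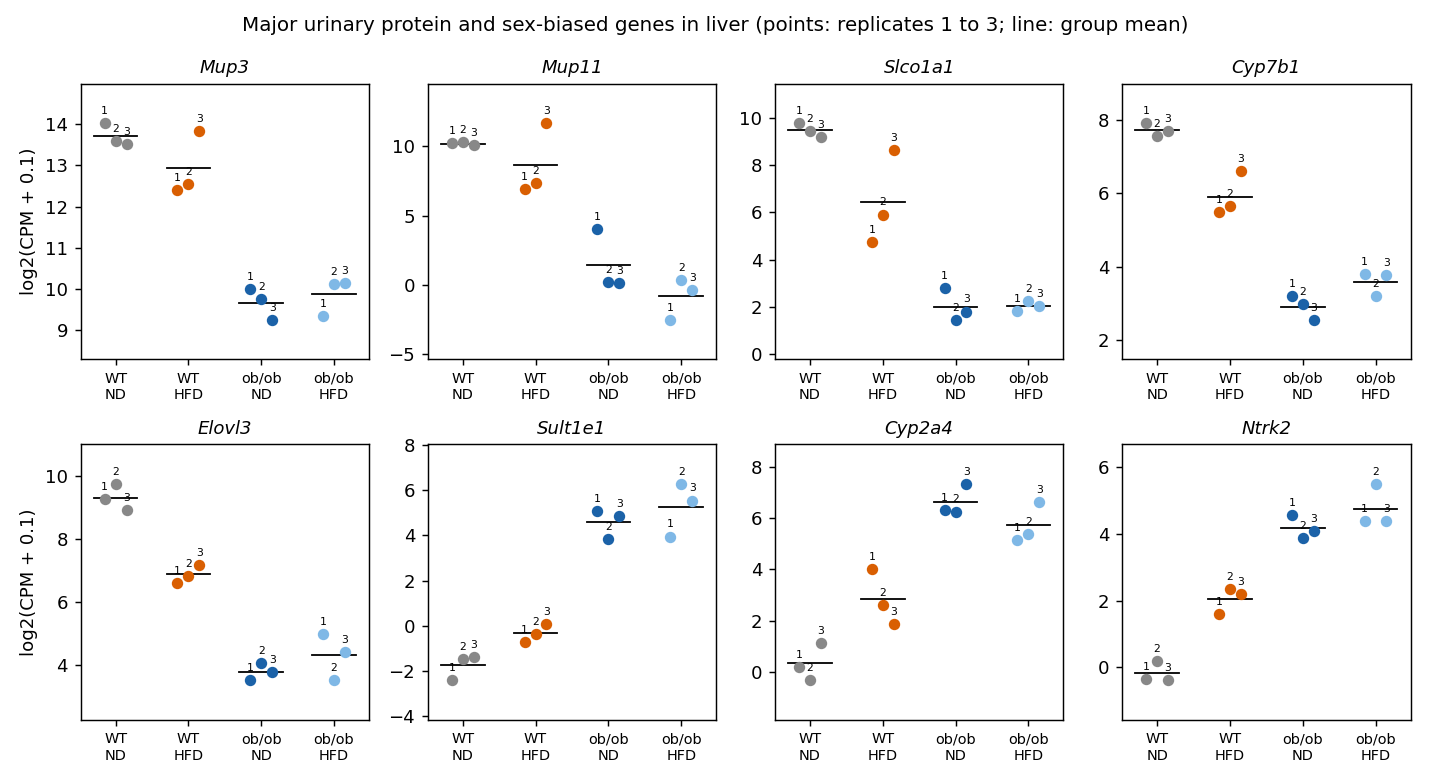
Levels (CPM) on a log2 axis for 2 major urinary protein genes, 3 male-biased genes and 3 female-biased genes in the 12 liver libraries, numbered by mouse, with a line at the mean of the log values. WT HFD mouse 3 lies above mice 1 and 2 for Mup3, Mup11, Slco1a1 and Cyp7b1, and the ob/ob points are low for the 5 genes in the first 2 sets and high for Sult1e1, Cyp2a4 and Ntrk2.

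Genes that mark the hepatocytes around the central vein were lower, 7 of 12 with none higher (median -0.73), and 6 of 12 without WT HFD mouse 3. Cyp2e1, the ethanol- and ketone-oxidising P450, was 10709, 9422 and 10165 CPM in WT HFD and 3739, 4994 and 2367 CPM in ob/ob ND (-1.45 ± 0.28, adjusted p = 0.00215). Slc1a2, a glutamate carrier of the same zone, was 197, 222 and 226 CPM and 60.4, 88.2 and 25.5 CPM (-1.89 ± 0.29, adjusted p = 0.000551), and Glul, glutamine synthetase, was lower (-0.97 ± 0.22, adjusted p = 0.00513). Mouse 3 was the lowest of the ob/ob ND mice for all 3. Axin2, a direct Wnt target, was not past the threshold (0.04 ± 0.24, adjusted p = 0.921). Of 14 periportal genes 7 were higher and 1 lower (median 0.33), with 3 higher without ob/ob ND mouse 1 or 3, 4 without WT HFD mouse 1 and 5 without WT HFD mouse 3. In bulk liver, fewer cells of a type and less RNA per cell cannot be told apart. Among 21 P450 genes of the 2 and 3 families 7 were higher and 4 lower. The lower count was 2 without WT HFD mouse 3, ob/ob ND mouse 1 or ob/ob ND mouse 3, and the higher count 4 without WT HFD mouse 2. Cyp2c69 was 0.366, 0.149 and 0.193 CPM in WT HFD and 3.16, 0.983 and 3.71 CPM in ob/ob ND (3.39 ± 0.58, adjusted p = 0.00105), Cyp2c40 behaved alike (3.17 ± 0.49, adjusted p = 0.000515), and copies of the Cyp2c family can share reads. Cyp26a1, the retinoic acid hydroxylase, was 1.91, 0.897 and 0.87 CPM in WT HFD and 16.9, 7.16 and 25.5 CPM in ob/ob ND, against a lean mean of 21.1 CPM and an ob/ob HFD mean of 3.07 CPM.

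Chaperones of the endoplasmic reticulum were lower in ob/ob ND liver. Of 25 tested genes that answer unfolded proteins and related stress 18 were lower and 1 higher (median -0.64), and without WT HFD mouse 3 the counts were 17 and 1. The stretches of the promoters shown here carry the endoplasmic reticulum stress element (a CCAAT part and a CCACG part, 9 bases apart), in capitals, in Hspa5 and Creld2, 2 of the 4 members with the smallest p. The sequences are RefSeq's on GRCm38.p6, 5′ to 3′ along each gene. The Hspa5 stretch is chr2:34771995-34772073 on the plus strand, with the element 47 to 65 bases before the start, and the Creld2 stretch is chr15:88819490-88819568 on the plus strand, with the element reversed 108 to 126 bases before the start.
Hspa5: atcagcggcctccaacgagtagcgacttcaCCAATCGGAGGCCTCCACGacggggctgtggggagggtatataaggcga
Creld2: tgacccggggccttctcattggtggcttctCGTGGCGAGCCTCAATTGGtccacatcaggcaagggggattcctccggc
The element, on either strand, was in 8 of 24 promoters of list members (33.3%) and in 39 of 32851 mouse promoters of the same 300 bases (0.119%). A match is a description of letters, not evidence of binding. Hspa5, the main chaperone BiP, was 1061, 1386 and 1267 CPM in WT HFD and 511, 501 and 506 CPM in ob/ob ND (-1.29 ± 0.12, adjusted p = 1.44e-05). Creld2 was 49.6, 82 and 69.2 CPM in WT HFD and 11.8, 12.2 and 11.3 CPM in ob/ob ND (-2.51 ± 0.17, adjusted p = 3.22e-06). Hyou1, a BiP partner, was lower as well (-1.88 ± 0.15, adjusted p = 5.65e-06), and so was Sdf2l1 (-2.43 ± 0.22, adjusted p = 1.48e-05). The ob/ob ND libraries of each gene lay in a narrow band, and the lean means (1090 CPM for Hspa5 and 51.2 CPM for Creld2) lay within the WT HFD range.

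Cytosolic heat shock genes were lower too, 11 of 21 with 1 higher (median -0.44), and 13 and 1 without WT HFD mouse 3. Hsph1, an HSP110 chaperone, was 52, 78.5 and 57.8 CPM in WT HFD and 11.8, 12.6 and 8.49 CPM in ob/ob ND (-2.52 ± 0.19, adjusted p = 3.42e-06). Fkbp4, an HSP90 co-chaperone, was 139.5, 136 and 138 CPM and 78.4, 83.4 and 78.9 CPM (-0.78 ± 0.08, adjusted p = 4.08e-05). Dnaja1, an HSP70 partner, was 269, 274 and 352 CPM and 174, 167 and 145 CPM (-0.88 ± 0.11, adjusted p = 0.000144). All 3 ob/ob ND libraries were below all 3 WT HFD libraries for each. The exception on the list was Bag3 (0.42 ± 0.09, adjusted p = 0.00359). Promoter stretches of Fkbp4 (chr6:128438770-128438837, minus strand) and Dnaja1 (chr4:40722314-40722381, plus strand) are given with the heat shock motif GAANNTTC in capitals, 144 to 151 and 117 to 124 bases before the start.
Fkbp4: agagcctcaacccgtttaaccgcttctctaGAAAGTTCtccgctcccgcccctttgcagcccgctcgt
Dnaja1: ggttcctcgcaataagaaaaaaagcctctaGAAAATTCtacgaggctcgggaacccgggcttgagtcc
GAANNTTC is its own reverse complement, and was in 11 of 23 promoters of list members (47.8%) and in 7.86% of all 32851 promoters. Members with the motif included Fkbp4, Dnaja1, Hsph1, Hspb1, Chordc1 and Hspa1b, which were lower, and Bag3, which was higher. Hspd1 (0.09, adjusted p = 0.55) and Hspe1 (-0.17, adjusted p = 0.244) also had it and were not past the threshold.

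Interferon response genes were lower in ob/ob ND than in WT HFD, 23 of 27 with none higher (median -1.48), and 23 of 27 again without WT HFD mouse 3. Rtp4 was 16.3, 12.7 and 18.5 CPM in WT HFD and 4.48, 4.57 and 4.28 CPM in ob/ob ND (-1.82 ± 0.16, adjusted p = 1.08e-05). Irf9, a transcription factor of interferon signalling, was 35.8, 39.2 and 40.8 CPM and 18.7, 19.5 and 18.2 CPM (-1.04 ± 0.10, adjusted p = 2.58e-05). Usp18, which damps the receptor, was 30.8, 27.2 and 30.7 CPM and 11.1, 10.2 and 7.35 CPM (-1.63 ± 0.20, adjusted p = 9.97e-05). None of the ob/ob ND libraries reached the WT HFD range, and the lean means were 8.22, 27.7 and 7.96 CPM. Against lean mice, 23 of 27 members were higher and none lower in WT HFD (median 1.41), whereas in ob/ob ND 7 were higher and 6 lower (median -0.14). The response element motif GAAANNGAA, on either strand, was in 13 of 21 promoters of list members (61.9%) and in 8.56% of all promoters. The stretch of the Isg15 promoter (chr4:156200846-156200926, minus strand), a gene chosen after its values were seen because 3 overlapping matches lie 58 to 78 bases before its start, is shown with them in capitals.
Isg15: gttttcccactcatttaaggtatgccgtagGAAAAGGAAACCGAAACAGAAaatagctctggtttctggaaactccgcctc
Isg15, a ubiquitin-like interferon product, was 14.8, 12.8 and 22.5 CPM in WT HFD and 4.77, 3.44 and 4.35 CPM in ob/ob ND (-1.99 ± 0.24, adjusted p = 0.000104).

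**Figure D5:**
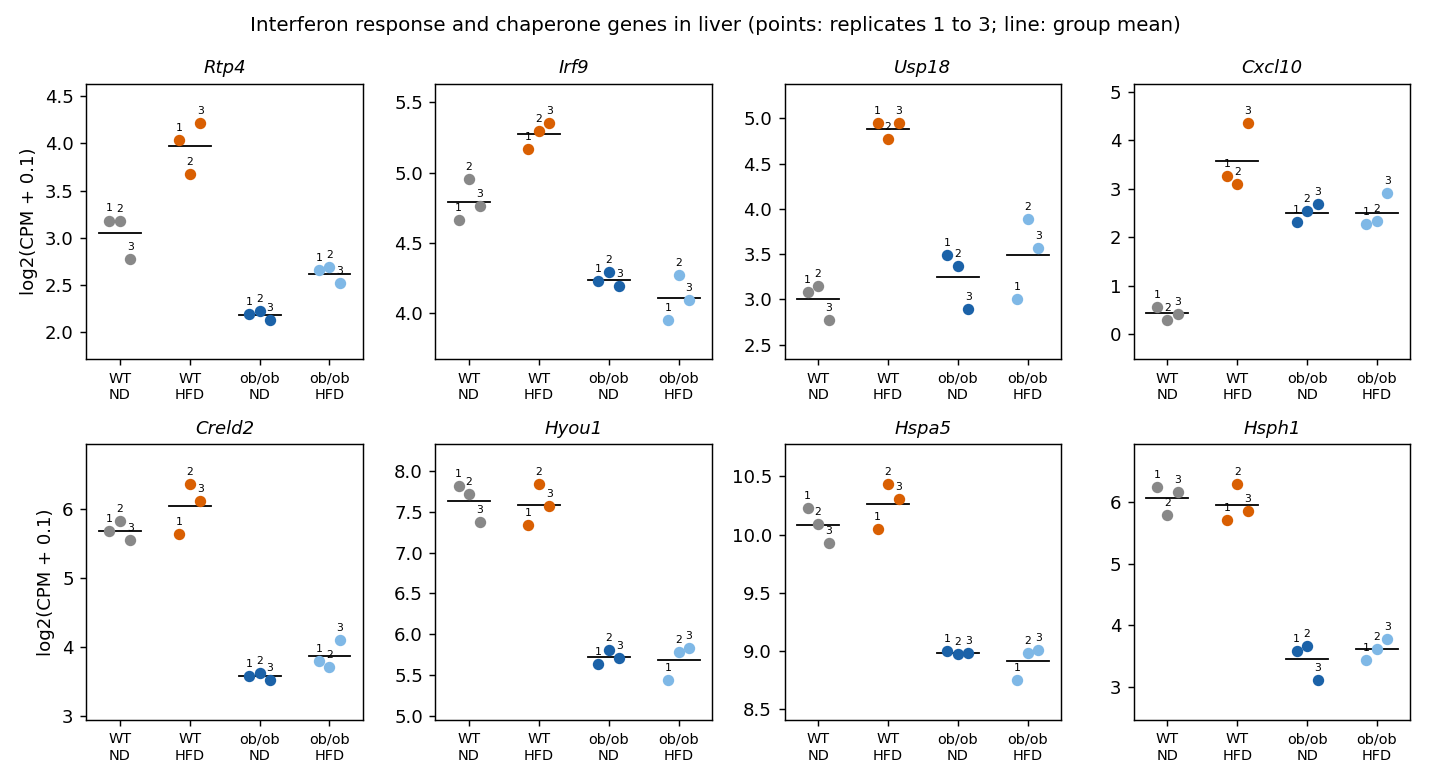
Levels (CPM) on a log2 axis for 3 interferon response genes, the chemokine gene Cxcl10, 3 endoplasmic reticulum chaperone genes and the cytosolic chaperone gene Hsph1 in the 12 liver libraries, numbered by mouse, with a line at the mean of the log values. The 3 WT HFD points lie above the 3 ob/ob ND points in every panel.

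Chemokine genes and part of the acute phase genes were lower in ob/ob ND. Of 21 tested chemokine and cytokine genes 7 were lower and none higher (median -0.73). Cxcl1, which draws neutrophils, was 14.1, 9.12 and 17.2 CPM in WT HFD and 4.33, 3.58 and 4.21 CPM in ob/ob ND (-1.73 ± 0.31, adjusted p = 0.00149). Ccr2, the receptor of incoming monocytes, was 4.69, 4.78 and 8.6 CPM and 1.91, 1.26 and 1.07 CPM (-2.07 ± 0.46, adjusted p = 0.00495), and Ccl2, its ligand, was not past the threshold (-0.38 ± 0.43, adjusted p = 0.551). Against lean, 14 of the 21 were higher and 2 lower in WT HFD (median 1.72), and 10 were higher and 2 lower in ob/ob ND (median 1.04). Of 24 acute phase genes 11 were lower and 3 higher (median -0.47). The higher count was 1 without WT HFD mouse 1, WT HFD mouse 2 or ob/ob ND mouse 1, and 0 without ob/ob ND mouse 3. Saa4 was 614, 462 and 758 CPM in WT HFD and 94, 111 and 113 CPM in ob/ob ND (-2.53 ± 0.23, adjusted p = 1.44e-05). Il1rn, the decoy ligand of the interleukin-1 receptor, was lower (-1.85 ± 0.20, adjusted p = 4.37e-05), as was Serpina3n (-0.90 ± 0.10, adjusted p = 7.5e-05). Serpina3k was called (-1.11 ± 0.30, adjusted p = 0.0157) but WT HFD mouse 3, at 12206 CPM, was far above mice 1 and 2 at 4441 and 5842 CPM, and without it the difference was -0.56 (adjusted p = 0.0705), and without ob/ob ND mouse 3 the adjusted p was 0.0615.

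Markers of the liver's other cells went different ways. Of 14 markers of Kupffer cells, the resident macrophages, 0 were called by edgeR (1 at an unadjusted p under 0.05, and 1 called by DESeq2), and their summed level was 662 to 857 CPM in WT HFD and 700.5 to 772 CPM in ob/ob ND. When only the 6 libraries compared were fitted, edgeR called Vsig4 higher (0.69, adjusted p = 0.0116) and Adgre1 lower (-0.75, adjusted p = 0.0131). Of 8 MHC class II genes 0 were called between the obese groups by edgeR (1 at an unadjusted p under 0.05, and 0 by DESeq2), and against lean 7 of 8 were higher in each of them. Of 20 lipid-associated macrophage genes 6 were higher in ob/ob ND, none lower and 14 not past the threshold (4 higher without WT HFD mouse 3). Without that mouse, Trem2 (-0.29, adjusted p = 0.779), Gpnmb (0.53, adjusted p = 0.656), Itgax (0.04, adjusted p = 0.966) and Cd68 (-0.27, adjusted p = 0.512) were not called by edgeR. Cd63, a lysosomal membrane protein that hepatocytes also make, was 9.45, 13.9 and 9.95 CPM in WT HFD and 50.4, 44.8 and 56.5 CPM in ob/ob ND (2.18 ± 0.26, adjusted p = 9.97e-05), against a lean mean of 2.59 CPM. Ctsl, a lysosomal protease (0.64 ± 0.09, adjusted p = 0.00026), and Cd9 (1.27 ± 0.25, adjusted p = 0.00232) were higher as well. Of 27 collagen and fibrosis genes 7 were lower and 1 higher (median -0.76). That count depended on single libraries: 3 were lower without WT HFD mouse 3 or ob/ob ND mouse 3, 4 without WT HFD mouse 2, 2 without ob/ob ND mouse 2 and 12 without ob/ob HFD mouse 2 (where 3 were higher), and 13 when only the 6 libraries compared were fitted. Col3a1, a fibrillar collagen, was 57, 70.6 and 63.8 CPM in WT HFD and 30.8, 20.5 and 25.5 CPM in ob/ob ND (-1.32 ± 0.40, adjusted p = 0.0271), both above the lean mean of 9.86 CPM. The Col3a1 call was lost without WT HFD mouse 2 or 3 (adjusted p = 0.0676 and 0.053) and without ob/ob ND mouse 2 or 3 (adjusted p = 0.0948 and 0.0767). Tgfbi, a matrix protein, was lower (-0.88 ± 0.14, adjusted p = 0.000521), and Col1a1 missed the threshold (-1.52 ± 0.58, adjusted p = 0.0678) but passed it with only the 6 libraries compared (adjusted p = 0.000384) or without any single ob/ob HFD library (adjusted p of 0.0325, 5.64e-05 and 0.0363). Of 12 stellate cell markers, the cells that make scar collagen, 4 were lower, 1 without WT HFD mouse 3, and 2 without ob/ob ND mouse 1 or 2. Of 15 endothelial markers 1 was higher (Lyve1, 0.86 ± 0.23, with adjusted p = 0.0535 without ob/ob ND mouse 2) and 1 lower (Clec4g, -0.96 ± 0.23), with 3 lower without ob/ob HFD mouse 2. Of 16 hepatocyte markers 6 were lower and none higher, among them Serpina1c (-1.27 ± 0.20, adjusted p = 0.000666), a member of a family of close copies. Of 7 T, B and neutrophil markers 2 were lower (0 without WT HFD mouse 2 or ob/ob ND mouse 3), of 6 cholangiocyte markers 1 was higher, and of 7 erythroid genes 1 was lower.

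Metallothionein genes were higher in ob/ob ND. Mt1, a metallothionein, was 82.9, 113 and 124 CPM in WT HFD and 563, 492 and 379 CPM in ob/ob ND (2.16 ± 0.37, adjusted p = 0.00101), and Mt2 was 11, 12.6 and 17.3 CPM and 69.5, 49.5 and 66.3 CPM (2.19 ± 0.41, adjusted p = 0.00172). Of 8 genes of zinc handling 4 were higher and none lower (3 and 1 without WT HFD mouse 3). Among 16 targets of the aryl hydrocarbon receptor and NRF2, 5 were higher and 3 lower. The lower count was 1 with DESeq2, with the replicate block and without WT HFD mouse 1 or 2 or ob/ob ND mouse 1 or 2, and the higher count was 3 without ob/ob ND mouse 3. Gstm3, a glutathione transferase, was 52.8, 69.7 and 22.2 CPM in WT HFD and 223, 232 and 322 CPM in ob/ob ND (2.42 ± 0.29, adjusted p = 0.000104). Nqo1, a quinone reductase, was higher (1.30 ± 0.18, adjusted p = 0.000295), and Cyp1a2, a target of the receptor, was lower (-1.01 ± 0.18, adjusted p = 0.00146). Of 14 glucocorticoid receptor targets 2 were higher, Mt1 and Mt2, and 3 lower, including Tsc22d3 (-1.38 ± 0.17, adjusted p = 0.000144), with 1 lower without WT HFD mouse 2 or 3 or ob/ob ND mouse 2 or 3.

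Among 22 secreted liver factors 3 were higher and 9 lower, with 5 lower without WT HFD mouse 1 or 3 or ob/ob ND mouse 1 or 2. Lect2 (-1.03 ± 0.15, adjusted p = 0.000329) and the activin subunit gene Inhbc (-0.67 ± 0.11, adjusted p = 0.000872) were lower, and Inhba, another activin subunit, was higher (1.69 ± 0.36, adjusted p = 0.00363). Of 19 clock genes 4 were higher and 2 lower, with 4 lower without lean mouse 3. Cry1, a clock repressor, was 5.72, 5.08 and 9.37 CPM in WT HFD and 15.3, 14.3 and 18.1 CPM in ob/ob ND (1.26 ± 0.29, adjusted p = 0.00593), while Nfil3 (-1.53 ± 0.28, adjusted p = 0.00147) and Ciart (-1.05 ± 0.19, adjusted p = 0.00162) were lower. Ciart had a lean mean of 1.36 CPM and was above it in all 6 libraries. The E-box CACGTG was in 6 of 21 promoters of clock genes (28.6%) and in 7.15% of all promoters, and the D-box TTATGTAA in 1 of 21 (4.76%) and in 0.938%. Of 22 cell division genes 3 were higher and none lower, a share close to the 13.5% of all tested genes that were higher. Rrm2, a subunit of ribonucleotide reductase, was among the 3 (1.46 ± 0.26, adjusted p = 0.00147). Of the 30 tested nuclear genes of the respiratory chain 0 were called by edgeR (3 lower without WT HFD mouse 2, 4 at an unadjusted p under 0.05, and 0 by DESeq2), and 1 of 13 mitochondrially encoded transcripts was (mt-Co3, -1.01 ± 0.23, adjusted p = 0.0067).

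Lep, which liver hardly transcribes, was listed at 0.147, 0 and 0 CPM in WT HFD and 3.08, 3.23 and 0.143 CPM in ob/ob ND mice 1 to 3. The 2 higher libraries were those with Adipoq at 11.8 and 2.6 CPM, and the WT HFD libraries held too few Lep counts for a ratio to mean much. Lepr, the leptin receptor, was 2.42, 2.62 and 2.42 CPM in WT HFD and 5.95, 5.62 and 2.85 CPM in ob/ob ND (0.95 ± 0.34, adjusted p = 0.0537), and it passed the threshold with DESeq2 (adjusted p = 0.0326) and without ob/ob ND mouse 3 (adjusted p = 0.0185).

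Several of the furthest apart genes belonged to none of the lists. Adcy1, an adenylate cyclase, was 0.147, 0.224 and 0 CPM in WT HFD and 10.3, 3.37 and 5.35 CPM in ob/ob ND (5.47 ± 0.60, adjusted p = 5.47e-05). Bmper, a regulator of BMP signalling, was 1.03, 1.05 and 0.87 CPM and 16.1, 16.2 and 9.63 CPM (3.81 ± 0.28, adjusted p = 3.37e-06). Slc34a2, a phosphate carrier, was 0.22, 0.224 and 0.29 CPM and 4.92, 14.4 and 9.85 CPM (5.28 ± 0.75, adjusted p = 0.000301). Each was near or below 1 CPM in WT HFD and well detected in ob/ob ND. Rasl10b (4.73 ± 0.60), Tubb2b, a beta-tubulin (4.08 ± 0.69), Lrtm2 (3.67 ± 0.82) and Shc2 (3.69 ± 0.95) were also higher, with adjusted p of 0.000143, 0.000974, 0.00509 and 0.0145, and the Shc2 value was 0.0509 without WT HFD mouse 1. In the other direction Krt23, a keratin, was 15.5, 6.65 and 5.8 CPM in WT HFD and 0.22, 0.351 and 0.285 CPM in ob/ob ND (-4.98 ± 0.55, adjusted p = 5.35e-05). Sult5a1, a sulfotransferase, was 3.52, 5.23 and 15.1 CPM and 0.0734, 0.281 and 0 CPM (-5.92 ± 0.71, adjusted p = 0.000104, and -5.09 without WT HFD mouse 3), and Akr1c6, a steroid dehydrogenase, was lower, at 1515, 1481 and 1929 CPM in WT HFD and 650.0, 602 and 495 CPM in ob/ob ND (adjusted p = 9.42e-06).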

How the data were processed

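Messenger RNA was sequenced from livers of 12 mice, 3 in each combination of genotype and diet, and 3 tables gave blood, body composition and weight values per mouse. Groups were taken from the sample titles. The deposited table holds raw fragment counts for 49671 genes. The authors counted them with featureCounts 1.5.1 over GRCm38 exons, per the file headers, with strand ignored. The submitters' processing notes name Trimmomatic 0.36, HISAT2 2.0.5 and featureCounts 1.5.0-p2. Genes that overlap on opposite strands may therefore share reads, and near-identical copies share or lose reads. The phenotype tables, as deposited by the authors, hold other measurements with a single value for each mouse and units named for the blood measures only. Free fatty acids and leptin were not used here.

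Total counts per liver library ranged from 10860694 to 14004875. The 12 liver libraries were fitted with edgeR 4.0.16 in R 4.3.3: filterByExpr (smallest count 10, smallest total count 15), TMM scaling and a quasi-likelihood test with a mean per group, so that the ob/ob HFD and lean libraries add to the estimate of the spread. Adjusted p values are Benjamini-Hochberg values over all 13246 tested genes, with a threshold of 0.05. CPM values used the TMM-scaled library sizes. Replicate numbers do not pair the samples across groups. For phenotypes, the difference in means was tested by an exact permutation test, two-sided. The model code was tested on simulated data.

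The genes named were, among called genes that have a regular symbol, a mean log2 CPM of 1 or more and non-overlapping groups, the 12 highest and 12 lowest log2 fold changes and the 8 most counted at least 2-fold higher and 8 lower. Up to 4 members of each of 49 gene lists with the smallest p, cell type markers, Lep and Lepr were added. Further list members were picked with their values in view, and some genes are not reported here. The comparison and the lists were chosen with earlier results of these data known. Motifs were counted in RefSeq promoters of GRCm38.p6, 250 bases before to 50 after each start. Alternatives were DESeq2 1.42.0, its size factors, no filter, only the 6 libraries compared, a replicate block, each library left out and a threshold of 0.01.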

Additional observations from a re-analysis of the deposited data

How the results depend on the processing

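The count of genes that differed between ob/ob ND and WT HFD livers stayed within 1.5 times of 3617 under every alternative but the stricter threshold. It was 3497 with DESeq2, 3646 with DESeq2 size factors, 3779 without a filter, 3500 with only the 6 libraries compared, and 2667 to 3836 with a library left out. Without WT HFD mouse 3 it was 2913, and 2689 of these were also among the 3617, all in the same direction. At a threshold of 0.01 the counts were 1962 for this comparison, 2950 for ob/ob ND against lean and 1283 for WT HFD against lean. With a library left out, the count for ob/ob ND against lean ranged from 3741 to 5080 and that for WT HFD against lean from 1819 to 3190, against 4816 and 2890 with all libraries; the 1819 came without WT ND replicate 1. No gene named here changed direction in a called result. Of the 173 named genes that were called, 15 lost the call without WT HFD mouse 3 and 2 with DESeq2. Across alternatives at 0.05 the interferon list had 22 to 24 lower members, fatty acid synthesis 13 higher, and cholesterol synthesis 12 to 20 higher. Male-biased genes ranged from 9 to 19 lower and collagen genes from 2 to 15 lower. Without a filter 16 female-biased and 13 lipid-associated macrophage genes were higher, against 10 and 6, and Col1a1 and Cyp7a1 passed the threshold (adjusted p = 3.09e-14 and 0.000304); the cause was not tested. Log2 differences also moved by over 1.5 times for Adcy1 (6.10) and Rasl10b (5.36) without WT HFD mouse 2, for Cyp2a4 (4.44), Cyp2c40 (4.07) and Krt23 (-4.39) without WT HFD mouse 1, for Lrtm2 (2.91) without ob/ob ND mouse 3, for Sult5a1 (-7.41) without ob/ob ND mouse 2 and for Mup11 (-10.16) without ob/ob ND mouse 1.

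With the replicate number as a block, 3475 genes differed. Same-numbered samples did not deviate together, so the numbers share no pairing and the block was not used elsewhere. Of the 10 phenotype differences, 9 had the same direction on a log2 scale, as ranks and with each mouse left out. That in triglyceride, which no test called, was 2 mg/dL with all mice and changed sign to -5.33 without ob/ob ND mouse 1, -1.17 without WT HFD mouse 1 and -8.17 without WT HFD mouse 2. Few reads limit genes near 1 CPM, such as Adcy1, Rasl10b and Pnpla3 in WT HFD.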

Other observations

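Some of the smallest p values belonged to genes outside the lists, chosen here after their values were seen. Nnt, a mitochondrial transhydrogenase whose gene carries a deletion in the C57BL/6J substrain, was 75.1, 69.1 and 55.1 CPM in WT HFD and 240.0, 241 and 247 CPM in ob/ob ND (1.87 ± 0.13, adjusted p = 3.22e-06). The lean WT mean was 51.5 CPM and the ob/ob HFD mean 225 CPM, so the level went with genotype on both diets. Wdfy1 was 7.99, 5.08 and 6.47 CPM in WT HFD and 29.9, 33.6 and 28.8 CPM in ob/ob ND (2.24 ± 0.16, adjusted p = 3.26e-06), with a lean mean of 6.05 CPM and an ob/ob HFD mean of 32.8 CPM. The labels name no strain, and the part of a difference in background between the WT and ob/ob mice was not tested.

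Sdr9c7, a short-chain dehydrogenase, had the same layout in the other direction, at 65.9, 72.8 and 75.3 CPM in WT HFD, 6.61, 10.4 and 8.06 CPM in ob/ob ND and means of 71.1 CPM in lean and 10 CPM in ob/ob HFD mice (-3.09 ± 0.15, adjusted p = 3.62e-07). Apol9a, an apolipoprotein L, was 52.7, 48.9 and 52.4 CPM in WT HFD and 8.59, 7.8 and 7.71 CPM in ob/ob ND (-2.67 ± 0.15, adjusted p = 5.46e-07), and its near copy Apol9b was lower as well (-2.05 ± 0.13, adjusted p = 3.22e-06). Errfi1, a brake on the EGF receptor, was 1066, 1325 and 945 CPM in WT HFD and 336, 267 and 364 CPM in ob/ob ND, against a lean mean of 1691 CPM (-1.79 ± 0.15, adjusted p = 6.8e-06). Tubb2a, a beta-tubulin, was 61.8, 58.2 and 36.9 CPM in WT HFD and 337, 365 and 515 CPM in ob/ob ND (2.95 ± 0.24, adjusted p = 6.64e-06).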
